A study of Homo sapiens with 3 samples.

Results

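Chromosome 22 is described here through every peak that the 2 deposited lists place on it in build hg19, 8612 Spindlin1 peaks and 9697 C11orf84 peaks. These 18309 intervals are 5.61% and 5.46% of the 153378 and 177557 peaks on chromosomes 1 to 22 and X, in 1.19% of the length from first to last peak. The lists come from chromatin immunoprecipitation with sequencing (ChIP-seq) in untreated U2OS cells, an established human osteosarcoma line, with an antibody against Spindlin1 in 1 library and against C11orf84 in another. Another library, Input, had no antibody, and no file of it was used. Cells of all 3 libraries were fixed with 1% formaldehyde for 10 min, which glycine at 0.125 M ended over 5 min. Because each antibody has 1 library, no difference below has a replicate check or a p-value. Values in brackets after a share are exact Clopper-Pearson 95% intervals, which cover counting error only. They treat peaks as independent, which neighbours are not.

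Spindlin1 is a chromatin reader built of Tudor-like repeats that binds the tail of histone H3 carrying methylated lysine 4, the mark of active promoters. C11orf84, also named SPINDOC, is a protein known to bind Spindlin1. Chromosome 22 is a small acrocentric chromosome: its short arm is mostly repeats and ribosomal RNA genes, and nearly all its other genes lie on the long arm. Chromosomes 17 and 19, rich in genes like chromosome 22, serve for comparison. No annotation in hg19 coordinates was used, so peaks are given by position and are not assigned to genes.

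Chromosome 22 was chosen by its number of peaks per Mb in these same lists, so the density is a description. Over the 35.1 Mb from its first to its last peak there were 245 Spindlin1 peaks per Mb and 276 C11orf84 peaks per Mb. Chromosome 17, over 81.1 Mb, had 138 Spindlin1 and 156 C11orf84 peaks per Mb. Chromosome 19, over 58.8 Mb, had 112 and 149.9 per Mb. Peak-free stretches, given below, took up more of the spans of chromosomes 17 and 19 than of chromosome 22. Peaks of chromosome 22 covered 7.89% of its span for Spindlin1 and 10.1% for C11orf84, against 4.50% and 5.68% on chromosome 17, 3.09% and 4.56% on chromosome 19, and 1.59% and 2.04% over all chromosomes.

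Chromosome 22 also led when peaks were set against genes. RefSeq lists 451 protein-coding genes on chromosome 22, 1169 on chromosome 17 and 1451 on chromosome 19 (gene numbers of GRCh38, set against peaks of hg19). Chromosome 22 therefore had 19.1 Spindlin1 peaks per protein-coding gene, against 9.61 on chromosome 17, 4.55 on chromosome 19 and 7.68 over all chromosomes. For C11orf84 there were 21.5 peaks per gene on chromosome 22, against 10.8 on chromosome 17, 6.08 on chromosome 19 and 8.89 over all. The next chromosome by this measure was chromosome 20, with 11.6 Spindlin1 and 12.8 C11orf84 peaks per gene. Among strong peaks only, those for which the −log10 q given by the authors was 10 or more, the order changed for Spindlin1: chromosome 22 had 2.38 such peaks per gene and chromosome 8 had 3.21. For C11orf84 chromosome 22 had 3.90 and chromosome 8 had 3.81.

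**Figure D1:**
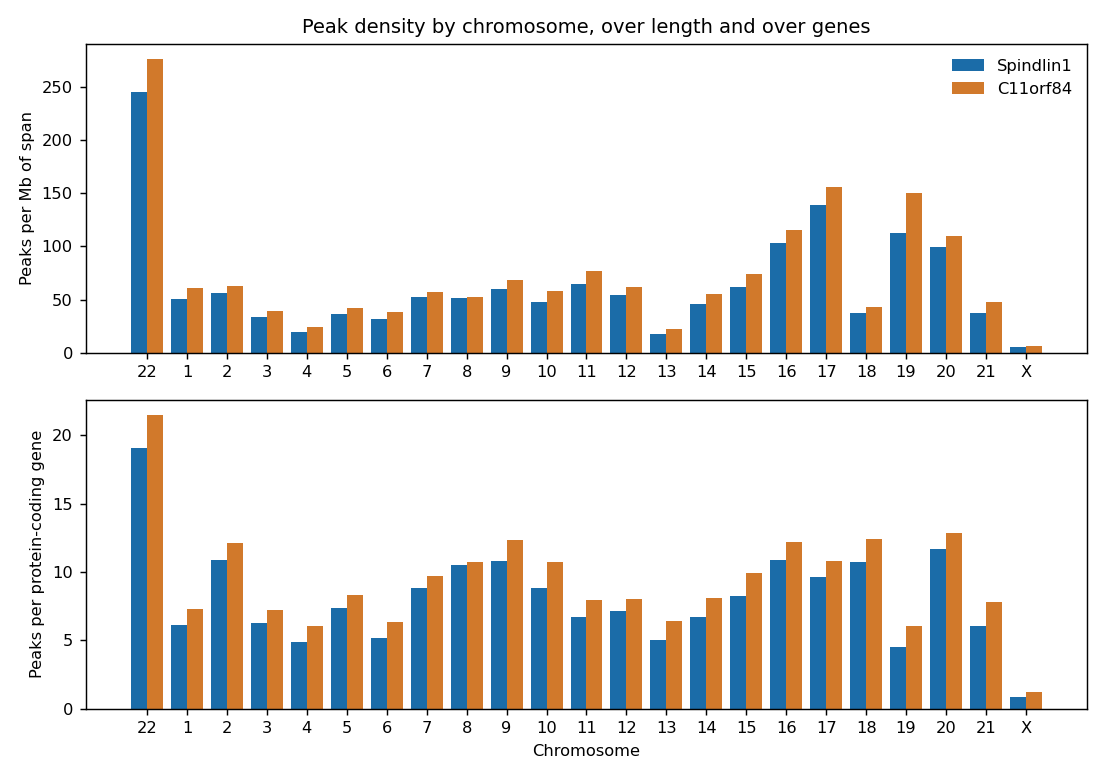
Peaks per Mb of span (upper panel) and per protein-coding gene (lower panel) for each chromosome, Spindlin1 and C11orf84 side by side, 1 library each. Chromosome 22, at the left, has the tallest bars in both panels, at 245 and 276 peaks per Mb and 19.1 and 21.5 peaks per gene, while chromosome 19 drops to 4.55 and 6.08 peaks per gene.

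Along the long arm the peaks of both lists followed 1 profile with 3 crowded parts and a sparser stretch between the last 2. That stretch still had 159 Spindlin1 and 176 C11orf84 peaks per Mb from 25 to 29 Mb, and 111 and 129 from 29 to 37 Mb. Windows of 1 Mb were counted by peak summit. The first 3 windows of the span, from 16 to 19 Mb, held 100 Spindlin1 and 159 C11orf84 peaks. The count then stepped up to 421 Spindlin1 and 462 C11orf84 peaks at 19 to 20 Mb and 383 and 372 at 20 to 21 Mb. A second crowded part lay at 23 to 25 Mb, with 340 and 388 peaks in the first of its windows and 316 and 338 in the next. Counts were 104 and 133 at 27 to 28 Mb, 208 and 255 at 30 to 31 Mb, and 8 Spindlin1 and 11 C11orf84 peaks at 34 to 35 Mb, the fewest for Spindlin1 of any window of the chromosome. From 37 Mb to the end, 5176 Spindlin1 and 5878 C11orf84 peaks were found, 365 and 415 per Mb.

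The 5 fullest windows were nearly the same in both lists. The window at 50 to 51 Mb, next to the end, held 612 Spindlin1 and 645 C11orf84 peaks, and ranked 19 and 20 among the 2805 windows of the genome that held a peak. The windows at 46 to 47 Mb (494 and 548) and 49 to 50 Mb (479 and 566) were the next. For Spindlin1 those at 19 to 20 Mb (421) and 43 to 44 Mb (417) completed the 5, and for C11orf84 those at 47 to 48 Mb (491) and 43 to 44 Mb (466). The emptiest, besides 34 to 35 Mb, were those at 16 to 17 Mb (14 and 10 peaks), 17 to 18 Mb (21 and 42) and 33 to 34 Mb (34 and 46) in both lists, with 18 to 19 Mb (65) for Spindlin1 and the partial last window at 51 Mb (101) for C11orf84.

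High counts were spread over most of the chromosome. Of its 36 windows, 34 exceeded the genome median of 17 Spindlin1 peaks (94.4%, 81.3 to 99.3), against 67 of 80 on chromosome 17 and 51 of 57 on chromosome 19. For C11orf84, with a genome median of 18, the numbers were 34 of 36, 68 of 80 and 51 of 57. The median window of chromosome 22 held 194 Spindlin1 and 237.5 C11orf84 peaks, against 89.5 and 107.5 on chromosome 17 and 102 and 144 on chromosome 19. The single fullest windows of chromosome 17 were fuller, at 831 Spindlin1 and 785 C11orf84 peaks. The fullest 9 of 36 windows held 46.4% of the Spindlin1 and 45.95% of the C11orf84 peaks of chromosome 22, against 64.3% and 61.8% in the fullest 20 of 80 on chromosome 17 and 49.98% and 48.7% in the fullest 14 of 57 on chromosome 19. Of the densest 5% of windows of the genome, 17 for Spindlin1 and 15 for C11orf84 lay on chromosome 22, against 11 and 12 on chromosome 17 and 4 and 7 on chromosome 19.

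**Figure D2:**
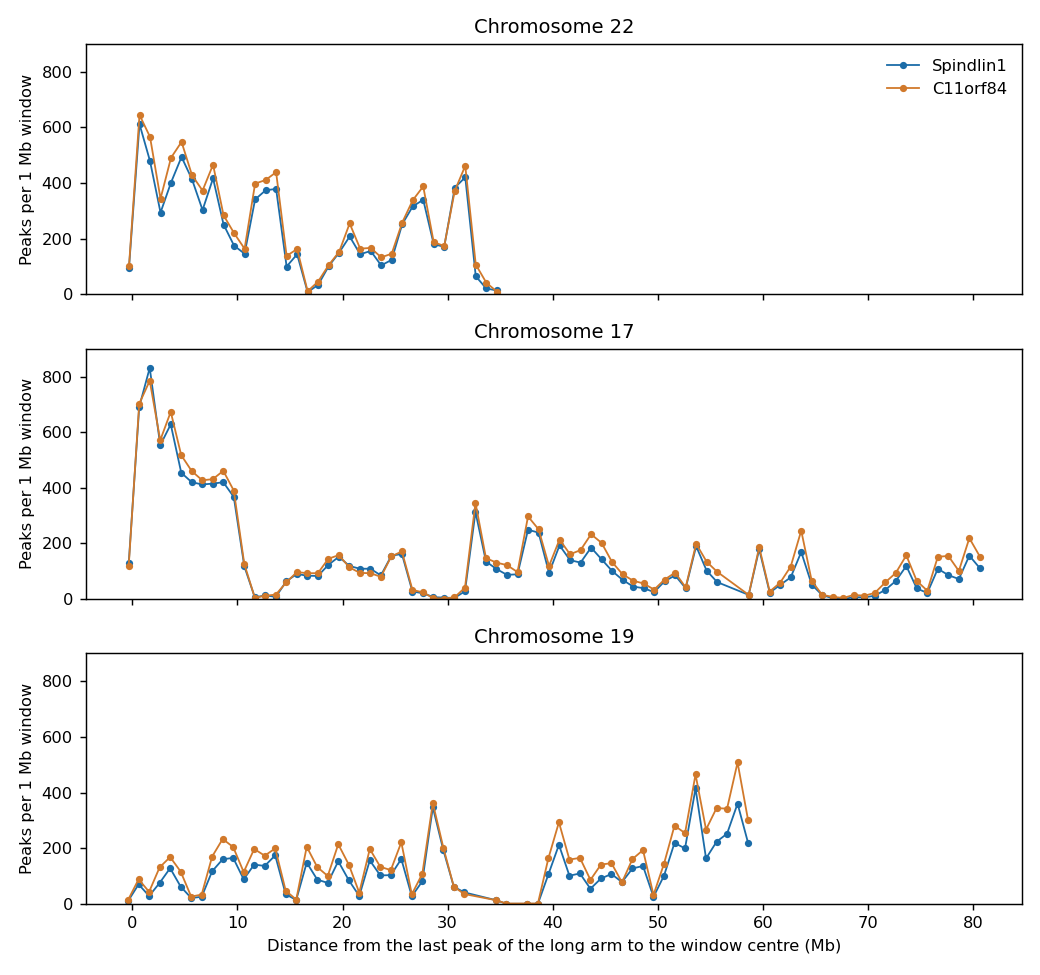
Peaks per 1 Mb window on chromosomes 22, 17 and 19 (windows with no peak are skipped by the line), plotted by the distance of the window's centre from the last peak of the long arm, so that the long arm end is at the left. Chromosome 22 still has windows of 372 to 462 peaks more than 30 Mb from its end, while chromosome 17 has its fullest windows within 10 Mb of its end and 3 windows of at most 16 peaks just beyond 11 Mb.

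Counted inward from the last peak of the long arm, chromosome 22 was not the fullest at the tip but stayed full farther in. Its outermost 5 Mb held 2366 Spindlin1 and 2676 C11orf84 peaks, ranks 5 and 4 among 23 chromosomes, against 3232 and 3311 on chromosome 17 and 370 and 555 on chromosome 19. From 10 to 15 Mb inward chromosome 22 held 1335 Spindlin1 and 1551 C11orf84 peaks, against 216 and 226 on chromosome 17, 581 and 734 on chromosome 19, and medians of 145.5 and 204 over the other 22 chromosomes. At 25 to 30 Mb inward it held 1249 and 1335, against 237 and 253 on chromosome 17 and 807 and 928 on chromosome 19. It ranked first in both lists in 4 of the 7 steps of 5 Mb that fit into it. Without the outermost 5 Mb, its density was 208 Spindlin1 and 233 C11orf84 peaks per Mb, against 105 and 123 on chromosome 17 and 116 and 153 on chromosome 19. Over the outermost 15 Mb the total of chromosome 22 (5259 and 5996) was close to that of chromosome 17 (5517 and 5744). That length held 61.1% and 61.8% of the peaks of chromosome 22, against 49.1% and 45.4% of those of the longer chromosome 17.

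The counts of both lists varied together across the 36 windows of chromosome 22 (Pearson's r 0.993, Spearman's rho 0.988). On chromosome 17 these were 0.992 and 0.978, and on chromosome 19 they were 0.977 and 0.987. Adjoining windows are not independent, and these values describe the windows. There were 0.888 Spindlin1 peaks for each C11orf84 peak on chromosome 22, 0.889 on chromosome 17, 0.749 on chromosome 19 and 0.864 over all chromosomes. Among the 32 windows of chromosome 22 with at least 50 peaks in both lists, this ratio was lowest at 18 to 19 Mb (65 Spindlin1 against 107 C11orf84 peaks, 0.607) and highest at 20 to 21 Mb (383 against 372, 1.03).

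Peak-free stretches were short. The longest stretch of chromosome 22 without a peak of either list ran for 752 kb (16098010 to 16850060), between the first peak, of Spindlin1, and the rest. The next ran for 563 kb (34536223 to 35099073), 398 kb (20310776 to 20708678) and 339 kb (21458273 to 21797326). Stretches of over 100 kb numbered 15 and took up 10.9% of the span, against 23.9% on chromosome 17, 19.9% on chromosome 19 and 51.1% over all chromosomes. The spans of chromosomes 17 and 19 cover both arms, and that of chromosome 22 only the long arm. No hg19 sequence was used, so gaps of the assembly were not told apart from sequence without peaks. Neighbouring summits of a list lay up to 3002 kb apart on chromosome 17 and 4740 kb on chromosome 19, against 753 kb on chromosome 22. Without such stretches 31.2 Mb of chromosome 22, 61.7 Mb of chromosome 17 and 47.1 Mb of chromosome 19 remained, which narrows its lead per Mb over both. With these stretches left out of every chromosome, the density of chromosome 22 was 2.59 times the mean for Spindlin1 and 2.51 times for C11orf84, in place of 4.71 and 4.58 times.

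Peaks of chromosome 22 stood close together. The median distance from a summit to the next of the same list was 1143 bp for Spindlin1 and 1090 bp for C11orf84, against 1325 and 1303 bp on chromosome 17, 2427 and 1769 bp on chromosome 19, and 1848 and 1647 bp over all. To find clusters, peaks of both lists were chained while the gap between them was at most 2 kb. This gave 2680 clusters on chromosome 22, of which 1783 (66.5%) held peaks of both proteins and 785 (29.3%) were a single peak. Over all chromosomes 52.5% of clusters held both proteins and 43.0% were a single peak. The values were 58.5% and 36.5% on chromosome 17 and 56.9% and 36.9% on chromosome 19. Clusters of at least 10 peaks numbered 472, or 13.5 per Mb, against 6.28 per Mb on chromosome 17 and 5.49 on chromosome 19, and took up 17.6% of the span, against 8.30% and 5.86%. They held 68.1% of the Spindlin1 peaks of chromosome 22 (67.2 to 69.1) and 65.8% of its C11orf84 peaks (64.9 to 66.8). Over all chromosomes 44.9% and 42.5% of peaks were in such clusters, with 56.9% and 53.0% on chromosome 17 and 38.3% and 36.8% on chromosome 19. Clusters follow from density, which chose the chromosome, so these shares are a description too. The median length of a large cluster was 9367 bp on chromosome 22, 9596 bp on chromosome 17, 9197 bp on chromosome 19 and 9056.5 bp over all chromosomes.

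**Figure D3:**
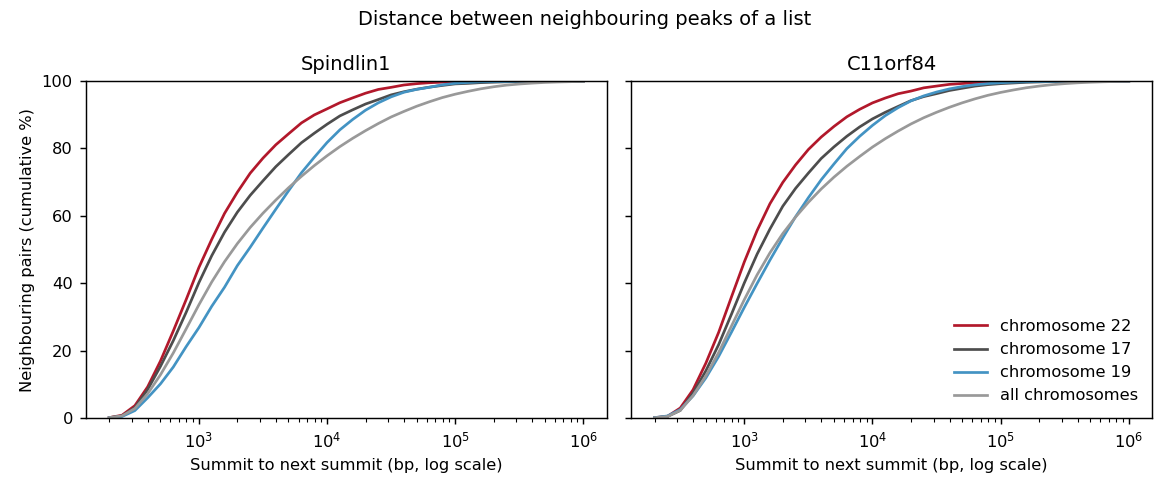
Cumulative percentage of neighbouring pairs of peaks by the distance between their summits (log scale), per list, for chromosomes 22, 17 and 19 and for all chromosomes. On chromosome 22, 44.7% of Spindlin1 and 46.3% of C11orf84 pairs lie within 1 kb, against 40.2% and 40.1% on chromosome 17, 26.8% and 32.9% on chromosome 19 and 33.6% and 35.2% over all.

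The 5 clusters with the most peaks lay in the crowded parts of the profile. The largest (43613443 to 43705170, 91728 bp) held 82 Spindlin1 and 104 C11orf84 peaks. The next, near the end of the long arm (50682154 to 50759727), held 91 and 89. A cluster at 19690806 to 19767490 held 76 Spindlin1 and 79 C11orf84 peaks, and 90.3% of its peaks overlapped the other list. Those at 46474032 to 46533620 (70 and 66) and 23424802 to 23471589 (56 and 60) followed. The largest ranked 16 among all clusters of the genome by number of peaks.

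Most peaks of either protein on chromosome 22 overlapped the other list. Shared means at least 1 bp in common, and 6736 of the Spindlin1 peaks were shared (78.2%, 77.3 to 79.1), against 69.7% of all Spindlin1 peaks, 75.4% (74.6 to 76.2) on chromosome 17 and 62.5% (61.4 to 63.7) on chromosome 19. Of the C11orf84 peaks, 6430 were shared (66.3%, 65.4 to 67.3), against 57.6% of all, 63.2% (62.3 to 64.0) on chromosome 17 and 45.8% (44.7 to 46.8) on chromosome 19. Chromosome 22 ranked first of 23 in both lists, just ahead of chromosome 16 for Spindlin1 (76.0%) and chromosome 8 for C11orf84 (66.1%). Density is highest on this chromosome too, and its part in the overlap was not tested. In bases, 1973 kb were common to both lists, 71.3% of the Spindlin1 and 55.8% of the C11orf84 territory of chromosome 22. The shares of bases were 71.4% and 56.5% on chromosome 17, 52.8% and 35.7% on chromosome 19, and 65.9% and 51.2% over all chromosomes. With at least 50% of both intervals in common, the shares were 51.2% and 45.5% on chromosome 22 and 51.0% and 45.3% on chromosome 17. By that measure chromosome 19 had 38.4% and 28.8%, and all chromosomes together 47.5% and 41.1%.

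The lead of chromosome 22 over chromosome 17 in sharing was widest among shallow peaks. Summit depth, the number of fragments over the summit, was recovered from the deposited fold and p-value, and peaks whose background was the lowest of their list, called the floor, were compared at equal depth. At 8 to 9 fragments 72.0% (69.2 to 74.7) of 1036 Spindlin1 peaks of chromosome 22 were shared, against 62.2% (59.3 to 65.0) on chromosome 17, 54.4% (51.9 to 56.8) on chromosome 19 and 57.3% over all. At 12 to 14 fragments the share was 84.2% (82.2 to 86.2) on chromosome 22 and 84.5% (82.6 to 86.3) on chromosome 17, and at 15 to 19 fragments it was 92.1% (89.2 to 94.4) and 90.7% (88.3 to 92.8), with overlapping intervals in both groups. C11orf84 peaks of 8 to 9 fragments were shared in 52.9% (49.5 to 56.3) on chromosome 22, 42.8% (40.0 to 45.7) on chromosome 17 and 33.4% (31.3 to 35.5) on chromosome 19. At 12 to 14 fragments the C11orf84 share was 72.1% (69.8 to 74.2) on chromosome 22 and 69.3% (67.1 to 71.4) on chromosome 17, again with overlapping intervals. At 15 to 19 fragments it was lower on chromosome 22, 82.0% (79.2 to 84.6), than on chromosome 17, 86.7% (84.5 to 88.7), with intervals that just overlap. Weighted to the depths found at the floor of chromosome 22, sharing was 79.4% there, 74.7% on chromosome 17 and 64.8% on chromosome 19 for Spindlin1, and 66.5%, 61.4% and 48.7% for C11orf84. Peak density, higher on chromosome 22, was not matched in these comparisons, and its part in them was not tested.

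**Figure D4:**
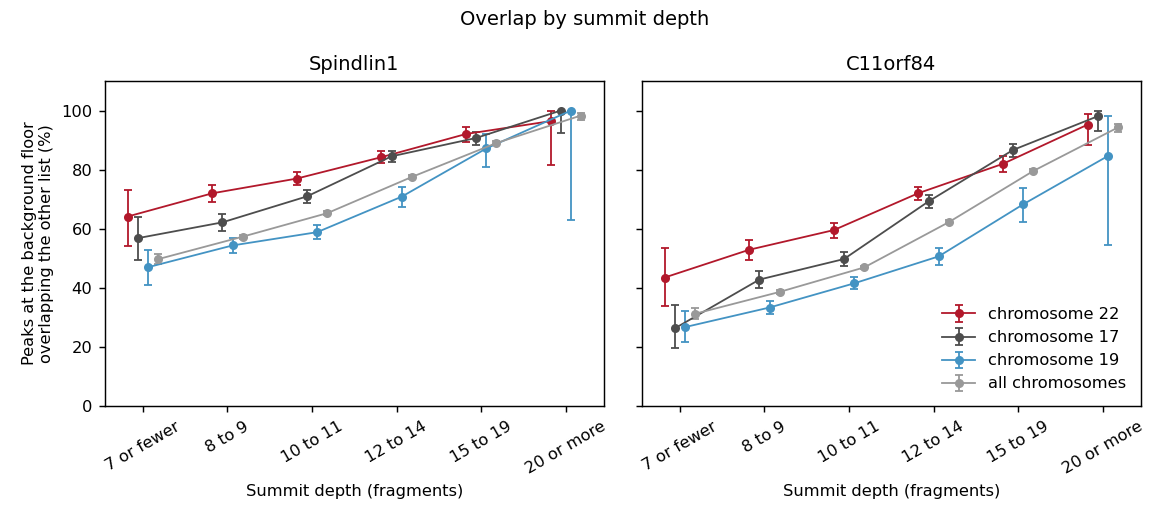
Percentage of peaks at the background floor that overlap the other list, by summit depth in fragments, for chromosomes 22, 17 and 19 and all chromosomes; bars are exact 95% intervals for counting error. Chromosome 22 lies highest up to 10 to 11 fragments in both lists, and chromosomes 22 and 17 come together at 12 to 14 fragments in Spindlin1.

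Among the strongest peaks chromosome 22 no longer led. When both lists were cut to a −log10 q of at least 10, 46.9% (43.9 to 49.9) of the Spindlin1 and 28.3% (26.2 to 30.5) of the C11orf84 peaks of chromosome 22 overlapped, against 49.03% and 31.3% on chromosome 17, 40.1% and 25.6% on chromosome 19 and 49.03% and 30.9% over all chromosomes. Cut to the 10000 peaks of highest −log10 q of each list, of which 610 Spindlin1 and 580 C11orf84 peaks lie on chromosome 22, the shares were 26.9% (23.4 to 30.6) and 27.6% (24.0 to 31.4), against 28.5% and 29.6% on chromosome 17, 24.6% and 31.0% on chromosome 19 and 35.6% and 34.2% over all. The values of chromosome 17 lie inside the intervals of chromosome 22, apart from the C11orf84 share at a −log10 q of 10, and the whole-list values of the 10000 strongest lie above them.

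Peaks found in 1 list alone were shallower and narrower. The 1876 unshared Spindlin1 peaks of chromosome 22 had a median of 11 fragments and 194.5 bp, against 12 fragments and 275 bp for the shared ones. The 3267 unshared C11orf84 peaks had 11 fragments and 214 bp, against 13 and 331 bp. Few were far from the other protein: 194 Spindlin1 peaks (2.25%, 1.95 to 2.59) and 331 C11orf84 peaks (3.41%, 3.06 to 3.79) had no peak of the other list within 5 kb. The shares were 8.36% and 10.9% over all chromosomes, 4.58% and 6.62% on chromosome 17, and 5.27% and 9.11% on chromosome 19. Such distances depend on density, which chose the chromosome, so the low shares are a description. The far Spindlin1 peak of highest fold (25889372 to 25889596) had a fold of 9.10 at 22 fragments, 6.24 kb from the nearest C11orf84 peak. The next were at 35529530 to 35529718 (fold 8.48), 44433737 to 44433908 (fold 8.03) and 33068654 to 33068836 (fold 7.70). For C11orf84 they were at 47860970 to 47861309 (fold 9.82, 19 fragments, 7.77 kb away), 31835880 to 31836127 and 50288400 to 50288761 (fold 9.33 each) and 36744771 to 36745041 (fold 8.84). A missing peak means only that none was called there.

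Some intervals spanned several peaks of the other list. On chromosome 22, 505 Spindlin1 peaks (5.86%) overlapped 2 or more C11orf84 peaks, up to 4. In turn, 739 C11orf84 peaks (7.62%) overlapped 2 or more Spindlin1 peaks, up to 6. Over all chromosomes these shares were 4.19% and 5.56%, with maxima of 5 and 8. They were 5.21% and 7.35% on chromosome 17, close to chromosome 22, and 3.07% and 3.12% on chromosome 19. Median width was 245 bp for Spindlin1 (interquartile range 189 to 373) and 272 bp for C11orf84 (204 to 420), and the shortest peaks measured 172 and 180 bp.

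The peaks of chromosome 22 were mostly shallow and of moderate enrichment. Median summit depth was 12 fragments in both lists, with interquartile ranges of 10 to 14 for Spindlin1 and 10 to 15 for C11orf84, against 12 and 13 on chromosome 17 and 10 and 10 on chromosome 19. The fold, the authors' own value for each peak, had a median of 6.04 for Spindlin1 and 5.89 for C11orf84. On chromosome 22, 1073 Spindlin1 peaks (12.5%, 11.8 to 13.2) and 1758 C11orf84 peaks (18.1%, 17.4 to 18.9) had a −log10 q of 10 or more, where 11.8% and 15.7% of all peaks had it. Chromosome 17 had 13.8% and 19.2%, and chromosome 19 had 6.15% and 7.23%.

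Chromosome 19 differed from chromosome 22 mainly in peaks of greater depth. At the floor, Spindlin1 peaks of at most 7 fragments were less dense on chromosome 22 (3.02 per Mb) than on chromosome 19 (4.81 per Mb). Those of 10 to 11 fragments were 1.65 times as dense on chromosome 22 (44.2 against 26.8 per Mb), and those of 15 to 19 fragments 5.02 times (13.3 against 2.65 per Mb). C11orf84 peaks of 8 to 9 fragments came to 24.0 per Mb on chromosome 22 and 34.7 on chromosome 19, and those of 15 to 19 fragments to 22.9 and 4.50 per Mb. Compared with chromosome 17, the floor peaks of chromosome 22 were denser at each of the 6 depth groups, by 1.34 to 2.16 times for Spindlin1 and 1.62 to 2.19 times for C11orf84.

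Strong peaks were more frequent in the near part of the long arm than in its fullest part. The stretch from 19 to 25 Mb had 302 Spindlin1 and 320 C11orf84 peaks per Mb, fewer than the 365 and 415 per Mb from 37 Mb to the end. Of its peaks, 20.2% of Spindlin1 and 29.2% of C11orf84 reached a −log10 q of 10, against 8.48% and 14.3% from 37 Mb on. From 25 to 29 Mb, where the background was higher, it was 28.5% and 29.8%. The same held at equal background. Of the floor peaks from 19 to 25 Mb, 22.4% (19.4 to 25.7) of Spindlin1 and 32.3% (28.96 to 35.8) of C11orf84 had 15 or more fragments, against 8.89% (7.94 to 9.92) and 15.8% (14.7 to 17.1) from 37 Mb on. The stretches were drawn after the profile had been seen.

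Within it, 19 to 21 Mb stood out for high and wide peaks. It held 9.34% of the Spindlin1 and 8.60% of the C11orf84 peaks of chromosome 22, but 24 of the 100 Spindlin1 peaks of highest fold (16.02 to 33.6%) and 31 of the 100 C11orf84 ones (22.1 to 41.0%). Of the peaks at least 2 kb wide, 8 of 10 Spindlin1 and 15 of 24 C11orf84 peaks lay there. Wide peaks made up 0.116% and 0.247% of the lists on chromosome 22, against 0.176% and 0.311% of all peaks.

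The Spindlin1 peak of highest fold on chromosome 22 (19716951 to 19719530) had a fold of 14.4 at 27 fragments and ranked 15 in the whole list. It is 2580 bp wide and overlapped 3 C11orf84 peaks, the highest with a fold of 8.84. Of the next 5, those at 19705388 to 19706185 (fold 12.8), 19609999 to 19610191 (12.5) and 19750271 to 19751453 (12.3) lay in the same window from 19 to 20 Mb. The other 2 were at 35730077 to 35730682, where both lists were high (fold 13.1 for Spindlin1 and 12.1 for C11orf84, 25 fragments in each), and at 28358824 to 28359063, where Spindlin1 had a fold of 12.4 at 31 fragments and C11orf84 one of 5.49 at 14, over a background of 1.67 times the floor in both. Folds of the lists are each relative to their own list.

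For C11orf84 the highest fold was 14.7, at 29 fragments over the floor (25580877 to 25581439), where the highest of 2 Spindlin1 peaks had a fold of 10.8. It ranked 28 in its list. Others were at 20159603 to 20159960 (fold 13.7), 25453167 to 25453412 (13.6), 19751630 to 19752231 and 20164905 to 20166225 (13.3 each) and 22275412 to 22276374 (12.8). All of these leading peaks overlapped a peak of the other list. The widest C11orf84 peak, 7018 bp at 20223878 to 20230895, spanned 6 Spindlin1 peaks and ranked 8 by width in the whole list. Next were peaks of 3813 bp (19806188 to 19810000, spanning 5) and 3326 bp (20232286 to 20235611, spanning 4). The widest Spindlin1 peaks, of 3379, 2907 and 2600 bp, lay at 20155029 to 20158407, 19732597 to 19735503 and 20197394 to 20199993. The one at 19732597 had a fold of 5.13 over a background of 2.85 times the floor, where the overlapping C11orf84 peak had a fold of 10.8 at the floor.

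Background, the local level against which a summit was judged, was low over most of chromosome 22. At least 2 times the floor, called raised, was found at 546 Spindlin1 peaks (6.34%, 5.83 to 6.88) and 737 C11orf84 peaks (7.60%, 7.08 to 8.15), where 9.07% and 9.19% of all peaks had it. Chromosome 17 had 9.33% and 9.59% and chromosome 19 had 4.71% and 4.67%. Peaks at the floor made up 52.4% and 51.8% on chromosome 22, 47.1% and 47.3% on chromosome 17, 66.4% and 68.2% on chromosome 19, and 48.2% and 49.3% over all. Counting floor peaks only, chromosome 22 had 5.12 times the mean density for Spindlin1 and 4.81 times for C11orf84. The same ratio was 4.71 and 4.58 over all peaks. The highest backgrounds under chromosome 22 peaks were 7.42 times the floor for Spindlin1 (23863980 to 23864449) and 7.63 times for C11orf84 (35695876 to 35696096), against maxima of 17.7 and 21.8 on chromosome 17 and 49.7 and 51.3 on chromosome 19.

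The stretch from 25 to 29 Mb was an exception. Only 48 of its 636 Spindlin1 peaks (7.55%, 5.62 to 9.88) and 50 of its 704 C11orf84 peaks (7.102%, 5.32 to 9.26) stood at the floor, against 38.7% and 38.8% from 19 to 25 Mb and 47.7% and 44.9% from 29 to 37 Mb. Median background there came to 1.57 times the floor in the Spindlin1 list and 1.64 times in the C11orf84 list, and a raised background was found at 22.2% (18.998 to 25.6) and 26.6% (23.3 to 29.99) of peaks. From 27 to 28 Mb none of 104 Spindlin1 and none of 133 C11orf84 peaks was at the floor, and the median background of 1.76 and 1.91 times ranked 28 and 20 among the 1247 windows of the genome with at least 20 peaks in both lists. In steps of 250 kb, the share of peaks at the floor was 21.5% for Spindlin1 and 16.7% for C11orf84 at 24.75 to 25 Mb and 2.86% and 2.70% in the next step, where the median background was 1.64 times the floor in both lists. At 29.5 to 29.75 Mb 57.95% and 59.1% of peaks were back at the floor. The level was uneven between these edges, with medians of 1.11 and 1.09 times over 14 and 21 peaks at 26.25 to 26.5 Mb. A stretch of this kind is not particular to chromosome 22: on chromosome 17, 20 to 25 Mb from the last peak, 6.14% of 570 Spindlin1 and 6.36% of 519 C11orf84 peaks stood at the floor. On chromosome 19, the 1 Mb windows from 28 to 31 Mb had 6.56%, 12.95% and 10.4% of Spindlin1 peaks at the floor. For C11orf84 these were 1.64%, 13.9% and 9.67%.

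Taken at all backgrounds together, peaks of 25 to 29 Mb were deeper, with folds between those of the crowded parts on either side. Their median summit depth was 15 (Spindlin1) and 16 (C11orf84) fragments, against 13 and 14 from 19 to 25 Mb and 11 and 12 from 37 Mb on. At the floor they were not deeper: the medians of 48 Spindlin1 and 50 C11orf84 peaks were 11 and 12 fragments. Floor peaks had 12 and 13 from 19 to 25 Mb and 11 and 12 from 37 Mb on. The median fold was 6.14 and 6.05, against 6.16 and 6.38 and then 5.80 and 5.89. Per Mb, 159 Spindlin1 and 176 C11orf84 peaks per Mb were found. Sharing was 77.5% (74.1 to 80.7) and 69.7% (66.2 to 73.1). Without the stretch, the raised share of chromosome 22 was 5.08% and 6.12%, and sharing was 78.3% and 66.04%. What raised the background was not tested.

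**Figure D5:**
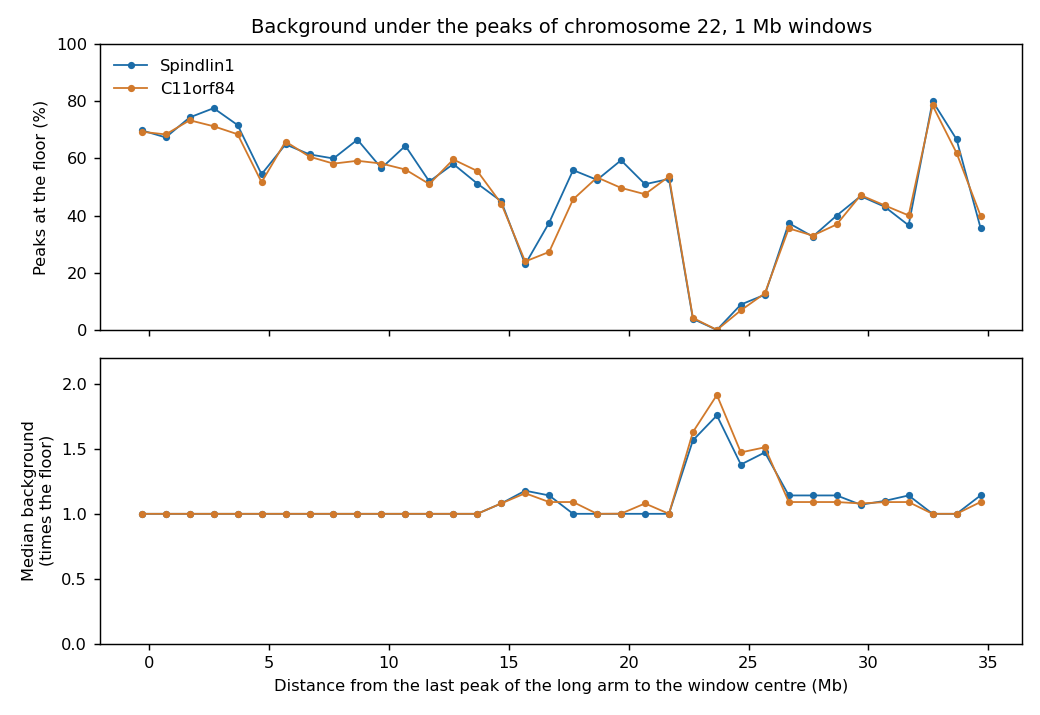
Percentage of peaks at the background floor (upper panel) and median background in multiples of the floor (lower panel) in 1 Mb windows of chromosome 22, by distance of the window's centre from the last peak of the long arm, for both lists. Both lists drop to 0% at the floor at 27 to 28 Mb, 23.7 Mb from the end, and their median background reaches 1.76 and 1.91 times the floor there.

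Sharing was lowest in the sparse start of the long arm. From 16 to 19 Mb, 52% (41.8 to 62.1) of the 100 Spindlin1 peaks and 31.4% (24.3 to 39.3) of the 159 C11orf84 peaks were shared. Of these peaks 71% and 71.7% stood at the floor, and their median depth was 10 and 11 fragments, against 13 and 14 from 19 to 25 Mb. The part of depth in the low share was not tested. From 19 to 25 Mb the shares were 81.3% (79.5 to 83.1) and 71.7% (69.6 to 73.7), from 29 to 37 Mb 73.8% (70.8 to 76.7) and 60.6% (57.5 to 63.6), and from 37 Mb on 78.5% (77.3 to 79.6) and 66.1% (64.9 to 67.3). Among single windows with at least 50 peaks in both lists, sharing was highest at 20 to 21 Mb, with 88.0% of Spindlin1 and 78.5% of C11orf84 peaks.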

How the data were processed

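The members and groupings were chosen with earlier results of these data known. Reads were aligned with Bowtie 1.2.2 to hg19 (build and tool per the submitters' processing notes). Not given in the sources used here are the peak caller, its threshold and its control, and each list belongs to a single library. The authors gave each peak a fold (a ratio over local background) and a −log10 p-value and −log10 q-value for its summit. The deposited score, unused, equalled 10 times −log10 q without its decimals in 100% of peaks. Positions count from 1.

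Summit depth k and background λ were recovered from fold = (k + 1)/(λ + 1) and a Poisson p-value for counts above k, a form inferred from the values. A whole k met both values of every peak to within 0.000174 (Spindlin1) and 0.000148 (C11orf84) of −log10 p. A second k came within 0.001 at 16 peaks of Spindlin1 and 0 of C11orf84. The floor, the lowest λ of a list, stood at 0.949 (Spindlin1) and 1.04 (C11orf84) fragments, and peaks within 0.1% of it count as at the floor. Read totals are unknown.

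Densities use the span from first to last peak of either list. Chromosome Y was left out. Regions named are the 6 peaks of highest fold, the 3 widest, the 4 of highest fold over 5 kb from the other list, the 5 largest clusters and the 5 fullest and emptiest windows. Gene lists went unused without hg19 annotation. No test was run, as each antibody has 1 library. The scripts were tested on simulated data and ran on Python 3.11.15 with pandas 2.3.3, NumPy 2.4.6, matplotlib 3.10.9 and SciPy 1.17.1.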

Additional observations from a re-analysis of the deposited data

How the results depend on the processing

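Density of chromosome 22, in multiples of the mean over chromosomes, was 4.71 for Spindlin1 and 4.58 for C11orf84. It was 4.98 and 5.29 at a −log10 q of at least 10, 5.12 and 4.81 at the floor, 2.59 and 2.51 without empty stretches of 100 kb, and 4.94 and 4.81 without 25 to 29 Mb. Sharing, 78.2% and 66.3%, was 51.2% and 45.5% at 50% of both intervals, 59.96% and 53.2% for summits at most 200 bp apart, 46.9% and 28.3% with both lists cut to a −log10 q of 10 or more, 26.9% and 27.6% among the 10000 strongest of each list, and 79.4% for Spindlin1 at the floor. The raised share was 17.5% and 19.5% at 1.5 times the floor, and 5.08% and 6.12% without 25 to 29 Mb. Peaks in large clusters were 47.2% and 44.2% at a gap of 1 kb and 85.8% and 84.9% at 5 kb. Peaks per gene were 1.64 and 1.67 times those of the next chromosome, 1.51 and 1.52 times with genes of every kind, and 0.741 and 1.02 times at a −log10 q of at least 10. The other 9 of the 38 alternatives stayed within the counting interval. Cutting 25 to 29 Mb or the outermost 5 Mb, and the alternatives for peaks per gene, were chosen after seeing the data. The cause of these moves was not tested, except that stricter overlaps and shorter gaps can only lower a share. No paired analysis was possible because each antibody has 1 library. At the floor, the shared percentage of chromosome 22 was 64.2% for Spindlin1 and 43.5% for C11orf84 at 7 or fewer fragments and 96.4% and 95.2% at 20 or more, and whether calls were missed at low depth was not tested.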
